A study of Mus musculus with 8 samples.

Results

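The 7 genes described here are the mouse receptors that bind the constant (Fc) part of IgG, their common signalling chain, the neonatal Fc receptor and a related receptor-like gene: Fcgr1, Fcgr3, Fcgr4, Fcer1g, Fcgr2b, Fcgrt and Fcrl5. They were taken by symbol, and all 7 were found among the 15283 genes listed in the bulk liver table and among the 22578 genes of the table of nuclei. They were chosen with their bulk values already known, so their bulk differences between genotypes are a description and carry no p-value here. Whole liver RNA was sequenced in 3 libraries of Tgfbr1 MKO livers (Tgfbr1 flox/flox with LysMcre, a Cre recombinase driven by the myeloid Lyz2 locus) and in 3 libraries of control livers (Tgfbr1 flox/flox without Cre). Nuclei were sequenced from 1 pool of 3 livers per genotype and deposited as means of 13 clusters. Both genotypes carried the floxed alleles of Tgfbr1, a receptor for TGF-beta, and both had eaten a diet that causes metabolic dysfunction-associated steatohepatitis (MASH) for 30 weeks. The sources used here give neither the age nor the sex of the mice. LysMcre is known to act in several myeloid cell types, not in macrophages alone.

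IgG that has bound its antigen is sensed through Fc gamma receptors. In the mouse, the activating receptors encoded by Fcgr1, Fcgr3 and Fcgr4 pair with the gamma chain encoded by Fcer1g, whose ITAM motif recruits the kinase Syk and starts phagocytosis and the oxidative burst, while Fcgr2b carries an ITIM motif that recruits inhibitory phosphatases. Macrophages carry both kinds, B cells carry Fcgr2b alone among these receptors, and sinusoidal endothelial cells of the liver use Fcgr2b to clear small immune complexes. Fcgrt encodes the heavy chain of FcRn, which returns IgG and albumin from endosomes to the blood, and Fcrl5 encodes an Fc receptor-like protein known mainly from B cells, whose human counterpart binds IgG.

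On GRCm38 (mm10), in the GENCODE M21 annotation, Fcgr2b (chr1:170958617-170976547, - strand), Fcgr4 (chr1:171018920-171029761, + strand), Fcgr3 (chr1:171051174-171064935, - strand) and Fcer1g (chr1:171229572-171234365, - strand) lie within 275.749 kb of chromosome 1. Fcgr1 (chr3:96282909-96293969, - strand) and Fcrl5 (chr3:87435773-87500678, + strand) lie on chromosome 3, and Fcgrt (chr7:45092990-45103851, - strand) on chromosome 7. The 250 bases before and 50 after the transcription start were taken from RefSeq (GRCm38.p6), which holds a promoter for all 7 genes. The first set below gives the promoters of Fcgr4 and Fcrl5, the genes with the largest bulk differences of the 7, of Fcgr1, and of Fcgr2b, whose bulk values overlapped between genotypes. The capitals mark AGGAAG and GAGGAA on either strand, longer strings around GGAA, the core of sites for ETS factors such as PU.1. In Fcgr1 they also mark TTCNNNGAA, the letters of a STAT site.
Fcgr4 (chr1:171018676-171018975, + strand): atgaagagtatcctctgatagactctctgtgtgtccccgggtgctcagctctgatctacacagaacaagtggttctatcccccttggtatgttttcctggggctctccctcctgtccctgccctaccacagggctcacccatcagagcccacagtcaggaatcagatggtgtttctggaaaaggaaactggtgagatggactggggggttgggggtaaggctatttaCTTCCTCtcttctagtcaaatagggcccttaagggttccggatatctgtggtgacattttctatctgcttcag
Fcrl5 (chr3:87435532-87435831, + strand): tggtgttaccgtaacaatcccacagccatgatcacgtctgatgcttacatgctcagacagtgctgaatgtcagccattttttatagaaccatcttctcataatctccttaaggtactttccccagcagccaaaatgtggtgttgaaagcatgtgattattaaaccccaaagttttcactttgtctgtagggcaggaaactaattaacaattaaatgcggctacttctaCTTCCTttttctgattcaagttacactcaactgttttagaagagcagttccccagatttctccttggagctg
Fcgr1 (chr3:96293920-96294219, - strand): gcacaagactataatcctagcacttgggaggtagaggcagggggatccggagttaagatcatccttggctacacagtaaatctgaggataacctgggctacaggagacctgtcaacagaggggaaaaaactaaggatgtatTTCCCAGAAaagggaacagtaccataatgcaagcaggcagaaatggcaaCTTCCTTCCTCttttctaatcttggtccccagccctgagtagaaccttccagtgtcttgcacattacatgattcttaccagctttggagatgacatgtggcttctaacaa
Fcgr2b (chr1:170976022-170976321, - strand): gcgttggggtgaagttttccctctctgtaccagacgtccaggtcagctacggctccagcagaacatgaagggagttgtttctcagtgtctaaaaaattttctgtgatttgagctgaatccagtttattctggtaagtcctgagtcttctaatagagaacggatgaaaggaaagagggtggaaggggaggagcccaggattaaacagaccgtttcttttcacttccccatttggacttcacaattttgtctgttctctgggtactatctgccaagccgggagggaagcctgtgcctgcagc

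For Fcgr3 and Fcer1g, 60 bases around the match nearest the start are enough to set beside these.
Fcgr3 (chr1:171059377-171059436, - strand): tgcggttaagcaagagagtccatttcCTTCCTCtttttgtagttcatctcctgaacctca
Fcer1g (chr1:171234322-171234381, - strand): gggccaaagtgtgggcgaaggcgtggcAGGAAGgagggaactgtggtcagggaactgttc
AGGAAG was present in the promoters of Fcgr1, Fcgr3, Fcgr4, Fcer1g and Fcrl5, and in neither Fcgr2b nor Fcgrt; 35.1% of the 32544 RefSeq promoters of this length hold it on either strand. The shorter core GGAA occurs in the promoters of Fcgr2b and Fcgrt as well, so these do not lack an ETS core. The overlapping 7 letters CTTCCTC, which hold both longer strings, occurred in Fcgr1, Fcgr3 and Fcgr4, against 13.4% of all promoters. In Fcgr4 they begin 23 bases before the start. RefSeq lists 2 starts for Fcgr3, and the letters begin 7 bases before one and 16 before the other. GAGGAA alone is held by 28.1% of promoters. TTCNNNGAA occurred once, in Fcgr1, against 8.33% of all promoters. These motifs were picked after the sequences and the expression values had been seen, and a match is a string of letters, not a bound site.

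Fcgr2b and Fcgr3 are close copies over part of their length, which bears on their counts. Over 509 aligned coding bases they were 96.5% identical, against 59.3% to 65.1% for the other 5 pairs among the 4 Fc gamma receptors. The longest stretch identical in both has 129 bases (from base 278 of the Fcgr2b and base 263 of the Fcgr3 coding sequence, GENCODE M21) and shows how far a read can match both genes.
Shared by Fcgr2b and Fcgr3: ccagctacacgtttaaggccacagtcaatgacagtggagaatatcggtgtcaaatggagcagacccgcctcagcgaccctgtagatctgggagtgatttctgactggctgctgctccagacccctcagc
Of all 50-base words in the transcripts of Fcgr3, 9.58% also occur in Fcgr2b, and 2.92% of those in Fcgr2b occur in Fcgr3. In all, 4.38% of the Fcgr2b words occur in another gene, and 47 genes, Fcgr3 among them, hold such words. The sources used here do not say how the authors' counting placed such reads, and the division of reads between Fcgr2b and Fcgr3 is uncertain. Fcgr1, Fcgr4, Fcer1g, Fcgrt and Fcrl5 shared none of their 50-base words with another gene. An annotated antisense gene overlaps Fcgr2b and another overlaps Fcgrt, and the sources used here do not say whether counting used strand.

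Recovered reads per bulk library numbered 17448117 to 23986319 in MKO livers and 20638906 to 23673147 in control livers. The values below are normalised read counts, gene counts divided by the authors' size factor of each library, where 1 read is worth 0.963 to 1.22. Of 15249 genes tested with limma, 3.05% passed the threshold used throughout (adjusted p under 0.05); 2.96% were called higher and 0.0853% lower in MKO livers. Tgfbr1 itself was read at 560, 857 and 735 in MKO livers and at 737, 810 and 777 in control livers (log2 fold change -0.13 ± 0.16 SE, limma adjusted p = 0.816), a count over the whole gene and not over the floxed exons alone. In the macrophage-like nuclei it averaged 4.87 in the MKO pool and 13.5 in the control pool. Summed levels of the 10 macrophage marker genes were 9197 to 14776 in MKO livers and 4514 to 7463 in control livers, and those of the 8 Kupffer cell genes 7992 to 12013 in MKO and 1609 to 5861 in control livers. Other cell type markers were also higher in MKO livers with no overlap: the summed monocyte genes (1315 to 2182 in MKO and 583 to 990 in control livers), dendritic cell genes (622 to 702 in MKO and 290 to 383 in control livers), T and NK cell genes (327 to 499 in MKO and 117 to 196 in control livers), neutrophil genes (214 to 309 in MKO and 140 to 156 in control livers) and vascular endothelial genes (1463 to 1549 in MKO and 887 to 1182 in control livers). The summed B cell genes were higher without overlap as well (230.5 to 403 in MKO and 104 to 219 in control livers). The genes within these sums did not all move together. By limma, 5 of 10 monocyte genes rose and 1, Cx3cr1, fell (log2 fold change -2.52 ± 0.35 SE, limma adjusted p = 0.00691). Of the genes tested, 3 of 6 dendritic cell, 3 of 9 T and NK cell, 1 of 5 neutrophil (Csf3r), 1 of 6 vascular endothelial and 0 of 7 B cell genes rose. In whole liver, more cells of a type and more RNA per cell cannot be told apart.

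Of the 7 genes, 5 were called and all 5 were higher in MKO livers: Fcgr4, Fcrl5, Fcer1g, Fcgr3 and Fcgr1. The same 5 had every MKO value above every control value, as did 10.4% of all genes tested (19.4% did not overlap in either direction). Since the genes were chosen on this contrast, nothing is read from those counts.

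Fcgr4 had the largest difference of the 3 activating receptors. This receptor binds the mouse subclasses IgG2b and IgG2c. Its normalised read count was 893, 1106 and 1486 in MKO livers and 93.4, 87.1 and 44.3 in control livers. The groups did not overlap, and MKO 1, the lowest MKO library, was still far above the highest control. The means were 1162 ± 300.2 in MKO and 74.95 ± 26.7 in control livers (SD, n = 3 each), 15.5-fold higher in MKO (log2 fold change 3.98 ± 0.30 SE).

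Fcgr3, the low-affinity activating receptor, was read at 403, 560 and 586 in MKO livers and at 185, 159 and 119 in control livers. The groups were apart by a smaller margin than for Fcgr4, with a 3.35-fold higher mean in MKO livers (log2 fold change 1.74 ± 0.21 SE). Fcgr1, the high-affinity receptor, was read at 112, 175 and 185 in MKO livers and at 61.9, 59.8 and 47.3 in control livers. MKO 1 stood below the other two MKO libraries, and the log2 fold change was 1.44 ± 0.24 SE. The Fcgr1 call was lost without MKO 2, without MKO 3 or without control 2 (log2 fold changes 1.35, 1.31 and 1.49).

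Fcer1g, the chain that the activating receptors need for surface expression and signalling, was read at 741, 859 and 978 in MKO livers and at 250, 214 and 175 in control livers. It was 4.03-fold higher in MKO livers (log2 fold change 2.01 ± 0.17 SE), between Fcgr3 and Fcgr4 in size of difference.

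Fcrl5 had the largest fold difference and the fewest reads of the 7. Its normalised read count was 70.8, 84.6 and 134.8 in MKO livers and 3.26, 4.199 and 0 in control livers. These values rest on 58, 83 and 140 reads in MKO and on 3, 4 and 0 reads in control libraries. Control livers were thus near the limit of what this depth can count, where 3 reads are the upper limit that a count of 0 allows. The ratio of means was 38.9, and the log2 fold change on the log2(value + 1) scale was 5.07 ± 0.62 SE. With such low control values the estimate moved with the method, between 3.07 and 6.37 over 15 alternatives.

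The inhibitory receptor Fcgr2b showed no such separation. It was read at 1327, 1307 and 1082 in MKO livers and at 1328, 1003 and 980 in control livers. The ranges overlapped, and the log2 fold change was 0.17 ± 0.15 SE, between 0.10 and 0.32 over the 15 alternatives. Fcgrt, the FcRn heavy chain, was read at 3298, 3151 and 3216 in MKO livers and at 3456, 3564 and 3675 in control livers. All 3 MKO values lay below the controls, as they did for 9.02% of all genes, but the difference was small (log2 fold change -0.15 ± 0.10 SE) and was not called.

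**Figure D1:**
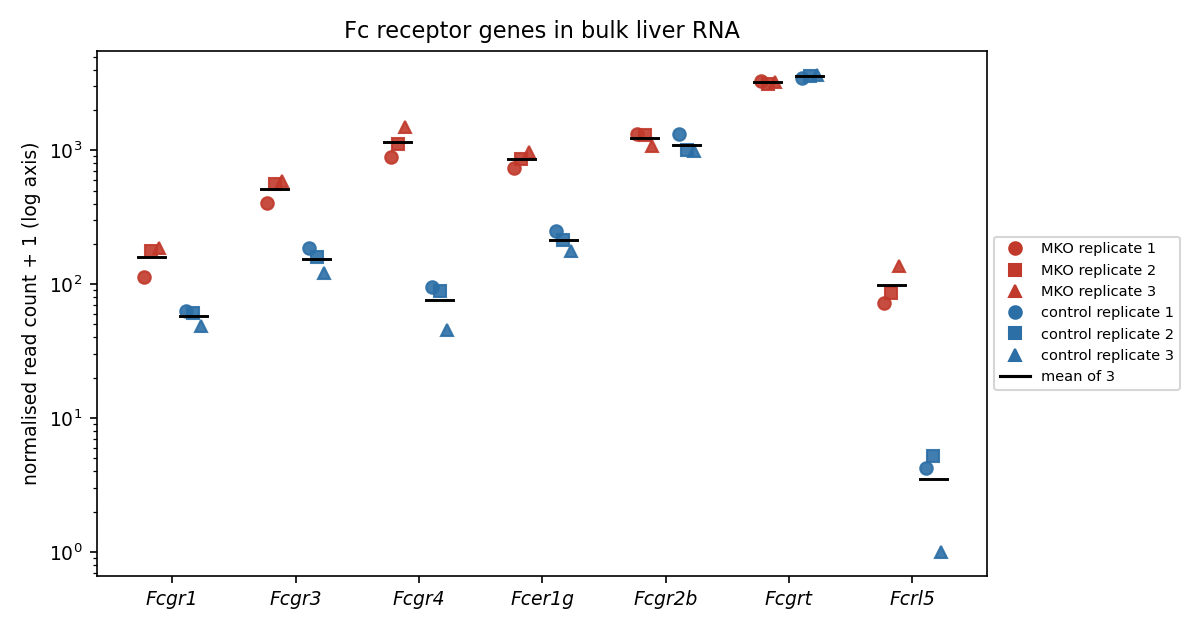
Normalised read counts plus 1 (log axis) of the 7 genes in the 3 MKO (red) and 3 control (blue) bulk liver libraries, with a symbol per replicate number and bars at the mean of 3. MKO and control points separate for Fcgr1, Fcgr3, Fcgr4, Fcer1g and Fcrl5, mingle for Fcgr2b, and for Fcgrt lie within 3151 to 3675.

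Among the 5 higher genes the libraries kept a similar order. MKO 3 was highest and MKO 1 lowest of the MKO livers in all 5, and control 3 was lowest of the control livers in all 5. The summed macrophage markers ran the same way, with 9197, 13785 and 14776 in MKO 1, 2 and 3 and 7463, 6079 and 4514 in control 1, 2 and 3. The part that macrophage content had in these differences was not tested.

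Per base of transcript the order of the receptors differed from that of the counts. In reads per kilobase of exon, scaled to library size (RPKM, from the recovered reads and the union of each gene's GENCODE M21 exons), Fcgrt was the highest of the 7 in both genotypes, at 70.5 ± 3.83 in MKO and 74.5 ± 6.97 in control livers (SD, n = 3 each). Fcer1g followed at 45.03 ± 4.59 in MKO and 10.7 ± 1.81 in control livers. Fcgr4 reached 42.2 ± 8.91 RPKM in MKO livers, where its range overlapped that of Fcer1g, and 2.59 ± 0.849 RPKM in control livers. In MKO livers Fcgr3 (13.6 ± 2.40 RPKM) and Fcgr2b (9.87 ± 1.55 RPKM) came next and were separated by a narrow gap, then Fcgr1 (2.79 ± 0.653) and Fcrl5 (1.26 ± 0.372). In control livers Fcgr2b (8.38 ± 1.68 RPKM) stood above Fcgr3 (3.88 ± 0.782), Fcgr4, Fcgr1 (0.951 ± 0.106) and Fcrl5 (0.0301 ± 0.0263), with Fcgr3 and Fcgr4 overlapping, as did Fcgr2b and Fcer1g. Part of this order depends on the length used: per base of the longest coding transcript, Fcgr3 (17.6 ± 3.09 RPKM) and Fcgr2b (16.1 ± 2.53 RPKM) overlapped in MKO livers, and Fcgr2b (13.69 ± 2.74 RPKM) was level with Fcer1g (13.66 ± 2.32 RPKM) in control livers (SD, n = 3 each).

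The mix of Fc gamma receptor transcripts was therefore different in the 2 genotypes. Of the summed RPKM of Fcgr1, Fcgr2b, Fcgr3 and Fcgr4, Fcgr4 made up 61.3% ± 4.53 in MKO and 16.2% ± 3.74 in control livers. Fcgr2b made up 14.8% ± 4.18 in MKO and 53.1% ± 4.78 in control livers (SD, n = 3 each). The 3 activating receptors together were 4.31, 5.63 and 8.52 times Fcgr2b in MKO livers and 0.892, 1.06 and 0.723 times Fcgr2b in control livers. On the deposited values, without division by length, the ratios were 1.06, 1.41 and 2.09 in MKO and 0.256, 0.305 and 0.215 in control livers. On either scale every MKO liver was above every control liver. The genes were chosen with their bulk values known, so nothing is read from that separation. In nuclei, described below, Fcgr2b was highest in sinusoidal endothelial-like nuclei and the activating receptors in macrophage-like nuclei. The part of macrophage content in these ratios and shares was not tested. The share of Fcgr3 was 16.7% in MKO and 11.1% in control livers on deposited values, but 19.9% in MKO and 24.6% in control livers per length.

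To set the genes beside macrophage content, each log2(value + 1) was given relative to the mean of the 10 macrophage genes in the same library, a mean that was itself 1.23 higher in MKO livers on the log2 scale. Relative to it, Fcgr4 was at 0.43, 0.20 and 0.44 in MKO livers and at -2.35, -2.14 and -2.69 in control livers. Fcrl5 was at -3.21, -3.50 and -3.01 in MKO livers and at -6.82, -6.22 and -8.19 in control livers. The log2 differences that remained were 2.75 for Fcgr4 and 3.84 for Fcrl5, and they were smaller for Fcer1g (0.78), Fcgr3 (0.51) and Fcgr1 (0.21). One of the 10 is Lyz2, whose locus carries the Cre and whose log2 fold change was -0.44 ± 0.31 SE. In an alternative chosen after seeing the data, the 9 genes without Lyz2 had a mean that was 1.41 higher in MKO livers on the log2 scale. Relative to these 9, the log2 differences were 2.56 for Fcgr4, 3.65 for Fcrl5, 0.60 for Fcer1g and 0.33 for Fcgr3, all without overlap, while Fcgr1 overlapped between genotypes (0.03).

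Fcgr2b was lower in MKO livers on this scale. It was at 1.002, 0.44 and -0.02 in MKO livers and at 1.47, 1.37 and 1.74 in control livers, a log2 difference of -1.05. This follows from its small bulk log2 fold change (0.17) and from the macrophage mean, which was 1.23 higher in MKO livers. Any gene with similar bulk values in both genotypes would come out lower on this scale, so no fall of Fcgr2b is read from it. Relative to the 8 sinusoidal endothelial genes, whose summed levels were 5357 to 6761 in MKO and 4236 to 5824 in control livers, the log2 difference of Fcgr2b was -0.18 and the groups overlapped. Relative to the 8 Kupffer cell genes, Fcgr4 (2.28) and Fcrl5 (3.37) stayed apart, while Fcgr1, Fcgr3 and Fcer1g overlapped between genotypes. Relative to the B cell genes, whose summed levels were 230.5 to 403 in MKO and 104 to 219 in control livers, the log2 difference of Fcrl5 was 4.26.

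**Figure D2:**
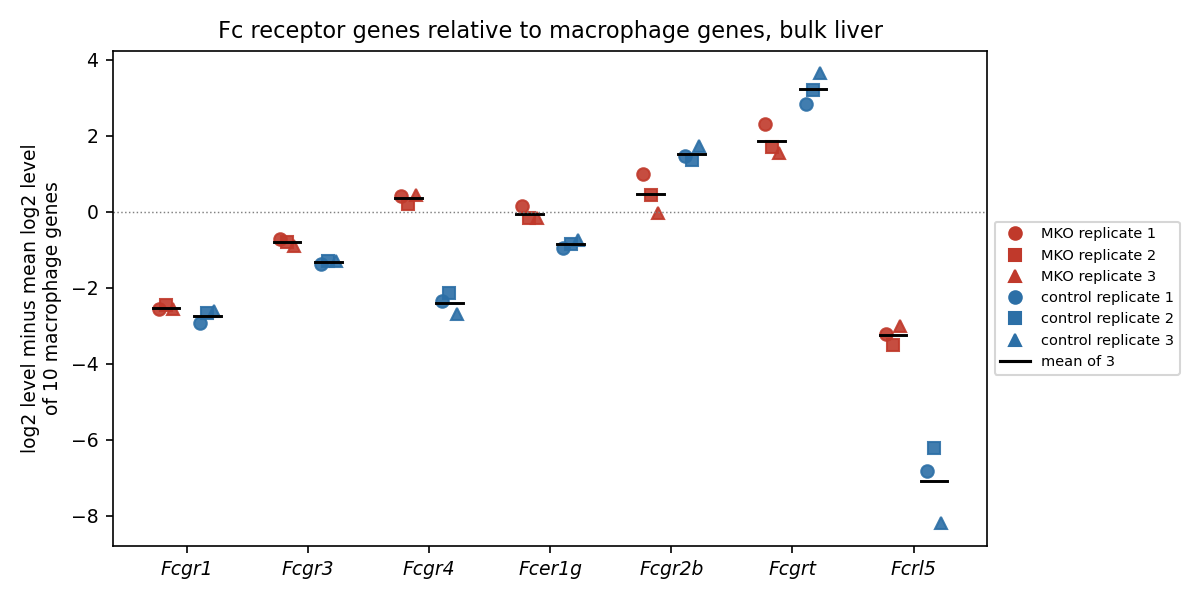
Log2(value + 1) of each gene minus the mean log2(value + 1) of 10 macrophage genes in the same bulk library, for 3 MKO (red) and 3 control (blue) livers, with bars at the mean of 3. Fcgr4 and Fcrl5 keep a wide gap (log2 differences of 2.75 and 3.84), and Fcgr1 a narrow one (0.21, but 0.03 and overlapping without Lyz2). Fcgr2b and Fcgrt, with small bulk differences, lie lower in MKO livers because the macrophage mean was itself 1.23 higher there.

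In nuclei, each gene had a mean per cluster and genotype on a scale where a cluster's genes sum to 10000. With 1 pool per genotype there is no test and no replicate check, the number of nuclei per cluster is not in the tables used here, and ratios use a pseudocount and are given only where the larger value passed a level set per cluster. The clusters are deposited by number and were given names here from marker genes: cluster 2 had all 10 macrophage and all 8 Kupffer cell genes at least 2-fold above the mean of the other clusters, hence its name, macrophage-like, cluster 4 had all 8 sinusoidal endothelial genes, and cluster 8 all 8 B cell genes. Cluster 2 also held 7 of 10 monocyte and 3 of 6 neutrophil genes at that level, and a cluster mean cannot separate such cells from macrophages. Cluster 10 was led by genes of cell division such as Top2a and Mki67 and also held 8 of 8 Kupffer cell genes. Whether doublets were removed is not stated in the labels or notes, and cluster means cannot show it; this bears on the values of Fcrl5 and Fcgr2b in cluster 2 and on those of cluster 10, and the part of doublets was not tested.

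Fcgr1, Fcgr3 and Fcgr4 were highest in the macrophage-like cluster 2 in both pools. There Fcgr4 averaged 5.77 in the MKO pool and 0.799 in the control pool (log2 ratio 2.65), and Fcer1g averaged 8.24 in the MKO pool and 3.15 in the control pool (log2 ratio 1.35). Fcgr3 averaged 1.31 in the MKO pool and 1.10 in the control pool, and Fcgr1 0.841 in the MKO pool and 0.795 in the control pool. Fcgr3 and Fcgr1 lay below the level set for a ratio in this cluster. Under a lower level added after the data were seen (75th instead of 90th percentile), their log2 ratios were 0.24 for Fcgr3 and 0.08 for Fcgr1. Of 1905 genes with a ratio in cluster 2, 5.04% were at least 2-fold higher and 4.72% at least 2-fold lower in the MKO pool. The summed macrophage markers of cluster 2 were 46.1 in the MKO pool and 40.8 in the control pool.

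Fcrl5 was the member whose leading cluster changed. In the MKO pool it was highest in cluster 2 (5.71), then in cluster 10 (3.38) and the B cell-like cluster 8 (1.10). In the control pool it was highest in the B cell-like cluster 8 (1.08), with 0.226 in cluster 10 and 0.127 in cluster 2. Its level in B cell-like nuclei was thus close in the 2 pools, and its log2 ratio in cluster 2 was 4.44. Markers of B cells were low in cluster 2: Ms4a1 averaged 0.00695 in the MKO pool and 0.00370 in the control pool, 2 of the 8 B cell genes were at 0 in each pool, and their sum was 6.75 in the MKO pool and 5.17 in the control pool, against 143 in the MKO pool and 154 in the control pool in cluster 8.

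Cluster 10 showed the same genes high in the MKO pool. Fcgr4 averaged 3.22 in the MKO pool and 0.326 in the control pool, Fcer1g 6.999 in the MKO pool and 1.04 in the control pool, and Fcrl5 3.38 in the MKO pool and 0.226 in the control pool. Its macrophage marker sum was 28.5 in the MKO pool and 19.0 in the control pool, and its sinusoidal endothelial sum 6.62 in the MKO pool and 28.8 in the control pool. These marker sums thus differed between the pools, and their part in the values was not tested.

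Fcgr2b had its home in another cell type. It was highest in the sinusoidal endothelial-like cluster 4, at 10.5 in the MKO pool and 8.72 in the control pool (log2 ratio 0.26), and is among the 10 leading genes of that cluster. Of 1796 genes with a ratio in cluster 4, 1.89% were at least 2-fold higher and 0.334% at least 2-fold lower in the MKO pool. The next cluster stood well below, 6.91-fold lower in the MKO pool (B cell-like) and 6.74-fold lower in the control pool (cluster 10). In macrophage-like cluster 2 it averaged 0.347 in the MKO pool and 0.827 in the control pool, a log2 ratio of -1.15 that is given only under the lower level added after the data were seen (75th instead of 90th percentile; of 4763 genes, 4.93% were then at least 2-fold lower and 4.03% at least 2-fold higher). The sinusoidal endothelial sum in cluster 2 was also lower in the MKO pool, 2.06 against 3.28 in the control pool. As a share of the level in cluster 4, Fcgr2b in cluster 2 was 3.31% in the MKO pool and 9.49% in the control pool, and the sinusoidal sum 1.46% in the MKO pool and 2.33% in the control pool; the part of such RNA in the Fcgr2b values was not tested.

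With that, the mix of the 4 Fc gamma receptors in cluster 2 was also different in the 2 pools. Fcgr4 made up 69.8% of their summed level in the MKO pool and 22.7% in the control pool, and Fcgr2b 4.199% in the MKO pool and 23.5% in the control pool. Single-nucleus means are not per length, so these shares compare pools and not receptors. In cluster 4, Fcgr2b made up 97.3% in the MKO pool and 99.8% in the control pool.

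Fcgrt was spread over all clusters. Cluster 4 was highest, at 1.91 in the MKO pool and 1.58 in the control pool (log2 ratio 0.25), and all 13 clusters were above 0 in both pools. The 3 hepatocyte-like clusters averaged 0.276 to 0.549 in the MKO pool and 0.387 to 0.530 in the control pool, and cluster 2 averaged 0.506 in the MKO pool and 0.518 in the control pool. Fcer1g was the other gene with a wide spread. Outside clusters 2 and 10 it was highest in the plasmacytoid dendritic cell-like cluster 11, at 2.26 in the MKO pool and 1.51 in the control pool, and in the T and NK cell-like cluster 7, at 1.18 in the MKO pool and 0.719 in the control pool; NK cells are known to use this chain.

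Outside these cell types the values were low. In the 3 hepatocyte-like clusters, Fcgr4 averaged 0.0365 to 0.0451 in the MKO pool and at most 0.000883 in the control pool, and Fcer1g 0.123 to 0.154 in the MKO pool and 0.0248 to 0.0274 in the control pool. The macrophage marker sum in the same clusters was 0.387 to 0.435 in the MKO pool and 0.166 to 0.168 in the control pool. Free RNA can give values of this size, its part was not tested, and no expression is read from them.

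**Figure D3:**
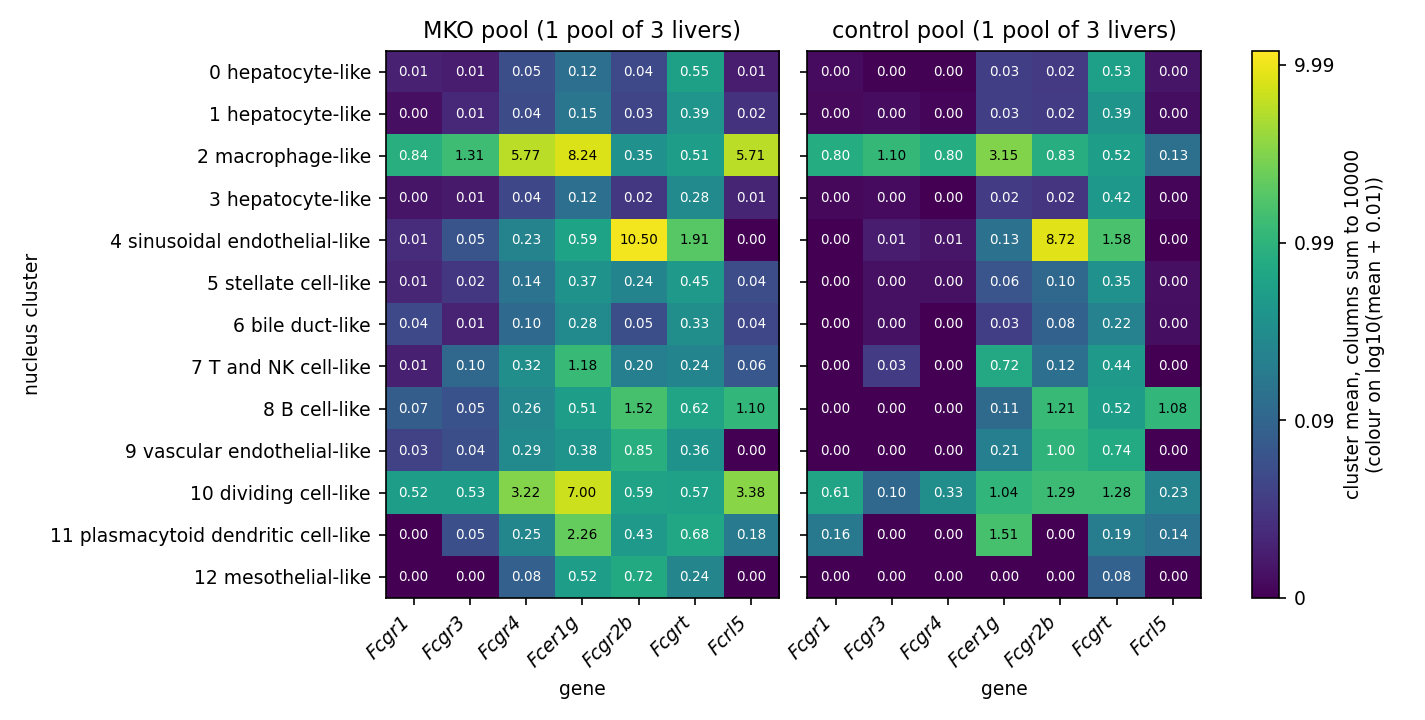
Cluster means of the 7 genes (columns) in 13 nucleus clusters (rows), in the MKO pool (left) and the control pool (right), coloured on a log10 scale and printed to 2 decimals; each cluster's genes sum to 10000. Fcgr4, Fcer1g and Fcrl5 are bright in clusters 2 and 10 of the MKO pool, and Fcgr2b is brightest in cluster 4 of both pools.

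**Figure D4:**
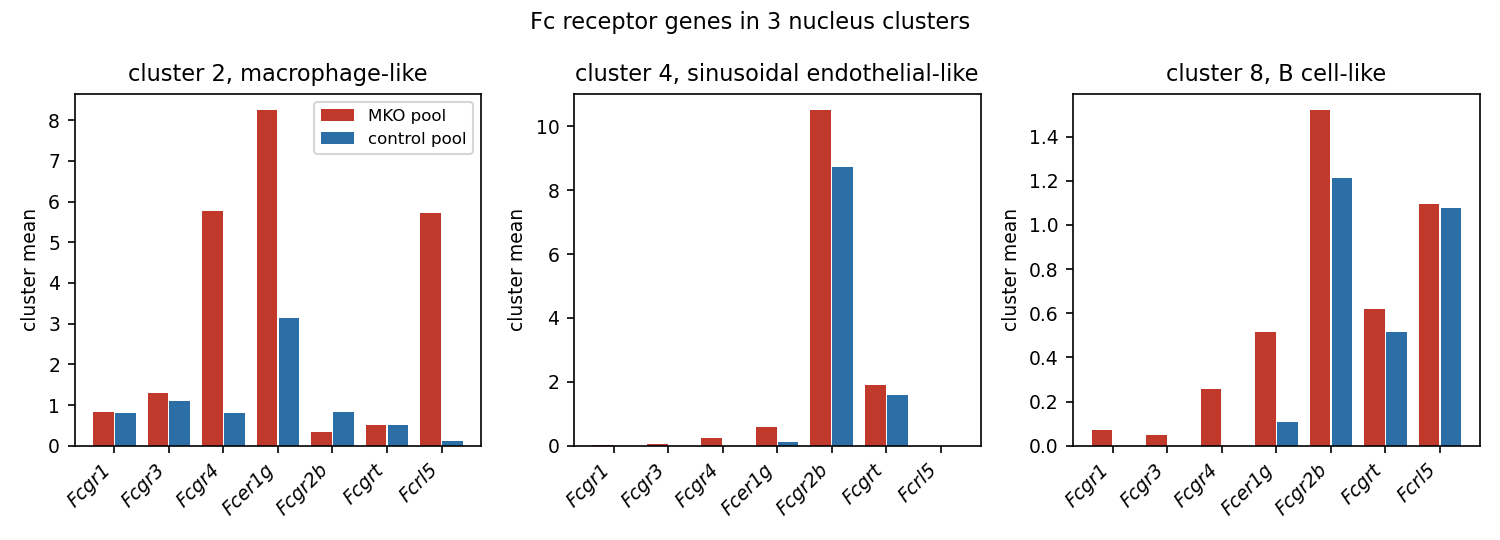
Cluster means of the 7 genes in the macrophage-like, sinusoidal endothelial-like and B cell-like clusters, with the MKO pool (red) left of the control pool (blue) and 1 pool per bar, so no error bar; each panel has its own scale from 0. In cluster 2 Fcrl5 is at 5.71 in the MKO pool and 0.127 in the control pool, while in cluster 8 it is at 1.10 in the MKO pool and 1.08 in the control pool.

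The genes around these receptors were described from 7 lists chosen by role, 80 genes of which 67 were tested in bulk. By limma 30 of them rose and 3 fell in MKO livers, against 2.96% higher and 0.0853% lower of all genes tested (edgeR called 31 and DESeq2 38 in all), with a median log2 fold change of 0.90 against -0.02 over all genes tested. Without MKO 2, without MKO 3 or without control 2, the limma count was 14, 17 or 19. The lists were made with the main bulk result known, so they are not independent of it. Many of their genes are also used by macrophages in general, whose 10 markers had 7 genes that rose and a median of 1.29. The summed markers of monocytes, dendritic cells, T and NK cells, B cells and neutrophils given above moved in the same direction. The part of any of these cell types in the lists was not tested.

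Genes of the ITAM pathway, which carries the signal of the activating receptors, were mostly higher: 14 of 21 rose and none fell, with a median log2 fold change of 1.48. Syk, the kinase that binds the phosphorylated ITAM, was read at 565, 579 and 594 in MKO livers and at 191, 124 and 124 in control livers (log2 fold change 2.01 ± 0.18 SE, limma adjusted p = 0.00310). Rac2, a GTPase of the phagocyte cytoskeleton, rose by 1.94 ± 0.21 (limma adjusted p = 0.00414), Lcp2, the adaptor SLP-76, by 1.89 ± 0.23 (0.00489) and Vav1, an exchange factor for Rac proteins, by 1.39 ± 0.17 (0.00508), all on the log2 scale. In nuclei of cluster 2, 15 genes of this list had a ratio. Only Tyrobp, an ITAM adaptor like Fcer1g, was at least 2-fold higher in the MKO pool, at 4.41 against 1.92 in the control pool, and the median log2 ratio was 0.32 against -0.07 over all genes with a ratio.

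Of 18 genes for inhibitory receptors with ITIM motifs and for the phosphatases they recruit, 11 rose, none fell and 7 were not called, with a median log2 fold change of 1.08. Among those not called were the phosphatase genes Inppl1 (log2 fold change 0.08 ± 0.15 SE) and Ptpn11 (-0.22 ± 0.16 SE), named after their values were seen. Cd300a, an inhibitory receptor for phospholipids, was read at 227, 332 and 367 in MKO livers and at 94.5, 90.3 and 73.9 in control livers (log2 fold change 1.81 ± 0.21 SE, limma adjusted p = 0.00442). Lilrb4a, an inhibitory myeloid receptor, was higher by 1.81 ± 0.24 and Cd72, which is best known from B cells, by 1.19 ± 0.16 (limma adjusted p = 0.00606 for both). Inpp5d encodes SHIP1, the phosphatase that Fcgr2b recruits, and was read at 196.5, 196.8 and 257 in MKO livers and at 99.9, 93.4 and 84.8 in control livers (log2 fold change 1.21 ± 0.17 SE, limma adjusted p = 0.00730). In cluster 2 nuclei it averaged 5.97 in the MKO pool and 7.90 in the control pool, and Siglece was the gene of this list at least 2-fold higher in the MKO pool, at 1.45 against 0.439 in the control pool.

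The phagocyte oxidase, which makes superoxide after Fc receptors are engaged, had 4 of 5 genes that rose. Cybb, its catalytic subunit, was read at 718, 1056 and 1166 in MKO livers and at 319, 261 and 260.2 in control livers (log2 fold change 1.78 ± 0.19 SE, limma adjusted p = 0.00426). Cyba, a further subunit, rose by 1.46 ± 0.18 on the log2 scale (limma adjusted p = 0.00514). Ncf4 rose by 1.61 ± 0.34 (limma adjusted p = 0.0426), a call that was lost in 5 of the 6 fits with a library left out (limma adjusted p up to 0.181). In cluster 2 nuclei none of the 3 oxidase genes with a ratio reached 2-fold; Cybb averaged 9.48 in the MKO pool and 6.03 in the control pool.

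Immunoglobulin genes, among them heavy chains of the IgG that these receptors bind, mostly had the opposite direction. Ighd (log2 fold change -0.07 ± 0.44 SE) and Iglc2 (-0.97 ± 0.58 SE) overlapped between genotypes. Of 8 immunoglobulin constant-region and J chain genes tested, 3 fell and none rose, with a median log2 fold change of -1.92. Ighg2c, the heavy chain of an IgG subclass that Fcgr4 binds, was read at 8.54, 6.12 and 3.85 in MKO livers and at 38.004, 87.1 and 73.9 in control livers (log2 fold change -3.20 ± 0.41 SE, limma adjusted p = 0.00547). Ighg2b, another such subclass, was read at 10.98, 11.2 and 24.1 in MKO livers and at 72.8, 191 and 78.8 in control livers (-2.76 ± 0.44 SE, limma adjusted p = 0.0129). Every MKO value of both genes lay below every control value. Ighm, Igkc and Jchain, named after their values were seen, were lower without overlap but were not called (limma adjusted p = 0.246, 0.219 and 0.101), and control 2 stood apart from the other controls: Ighm was read at 477, 2550 and 375, Igkc at 205, 994 and 179, and Jchain at 54.3, 268 and 51.2 in control 1, 2 and 3. Without control 2 the median of the 8 genes was -1.43.

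Igha, the IgA heavy chain, was read at 17.1, 9.18 and 11.6 in MKO livers and at 34.7, 53.5 and 50.3 in control livers (log2 fold change -1.81 ± 0.33 SE, limma adjusted p = 0.0219). The Igha call was lost without MKO 2, MKO 3, control 2 or control 3 (limma adjusted p up to 0.114), and that of Ighg2b without MKO 2 (0.0683). The division of reads among the near-identical Ighg genes is uncertain. Of 5 plasma cell genes tested, limma called none (edgeR called 0 and DESeq2 2). An unadjusted p under 0.05 was found for 2 of them, in opposite directions. These were Jchain (log2 fold change -2.72 ± 0.71 SE), which is also counted among the 8 genes above, and Prdm1 (1.55 ± 0.41 SE).

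None of the genes tested among FcRn's partner and cargo or among the other Fc receptors was called by limma. B2m, the light chain of FcRn, had a log2 fold change of 0.15 ± 0.15 SE, and Alb one of -0.02 ± 0.56 SE, whose interval is too wide to exclude a sizeable change. Of the 5 other Fc receptor genes tested, 2 had an unadjusted p under 0.05, and edgeR and DESeq2 called 0. Pigr, which carries IgA into bile, had a log2 fold change of -0.13 ± 0.17 SE. Fcrl1, a neighbour of Fcrl5 known from B cells, averaged 25.0 ± 8.57 in MKO and 8.68 ± 2.51 in control livers (log2 fold change 1.41 ± 0.38 SE, limma adjusted p = 0.118) and is named after its values were seen.

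Of 8 regulators of Fc receptor genes tested, limma and edgeR each called 1, Spi1, and DESeq2 called 3. Spi1 encodes PU.1, an ETS factor, and strings around the ETS core are marked in the promoters above. Spi1 was read at 332, 382 and 587 in MKO livers and at 119, 122 and 81.8 in control livers (log2 fold change 1.98 ± 0.24 SE, limma adjusted p = 0.00502). Each MKO value was above each control value. In cluster 2 nuclei Spi1 averaged 5.33 in the MKO pool and 3.62 in the control pool (log2 ratio 0.54). Irf1, an interferon-induced transcription factor, was not called (log2 fold change 0.46 ± 0.16 SE, limma adjusted p = 0.243), although its unadjusted p was under 0.05.

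**Figure D5:**
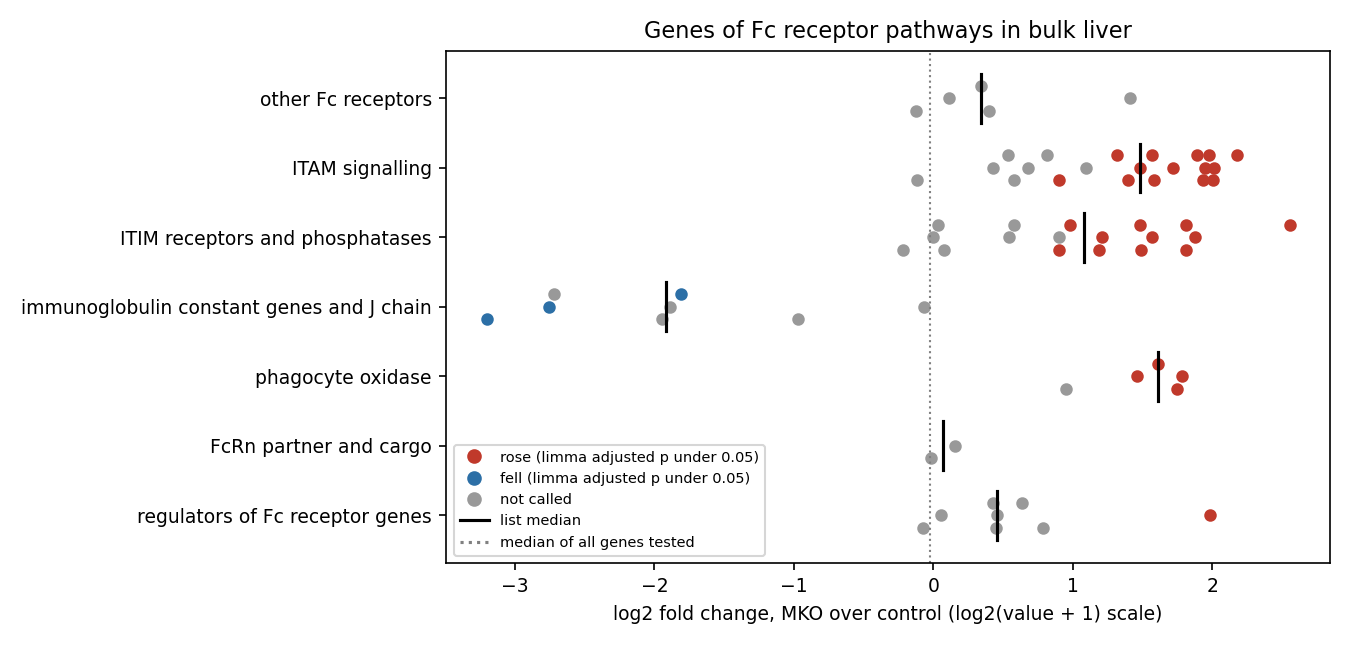
Log2 fold changes (MKO over control, log2(value + 1) scale) of the 67 tested genes of 7 lists in bulk liver, with red for genes that rose, blue for genes that fell and grey for genes not called by limma; black bars are list medians and the dotted line the median of all genes (-0.02). ITAM genes centre on 1.48 and immunoglobulin genes on -1.92.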

How the data were processed

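RNA from 3 MKO and 3 control livers and nuclei from 1 pool of 3 livers per genotype were analysed. Per the submitters' processing notes, the tools named are RSEM 1.3.3, STAR, FastQC, DESeq2, Seurat 4.0.1 and Cell Ranger and the build is mm10; their roles, the annotation and the settings are not stated there. For bulk RNA the deposited values are a signal made by the authors, in which each library's gene counts were divided by a size factor; 100% were whole multiples of 1 read within 0.01, which gave whole reads. The authors' deposited log2 fold changes and p-values were used only to check signs. For nuclei the deposited values are a signal made by the authors, the mean per gene, cluster and genotype.

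The 7 members and all lists were chosen with earlier results of these data known. Bulk genes with a mean of at least 1 were tested with limma 3.58.1 (limma-trend, R 4.3.3) on log2(value + 1), genotype as the only term, with Benjamini-Hochberg adjustment over 15249 genes; fold changes on this scale understate those of low genes. Labels give replicate numbers only, so p-values reflect only how these samples vary, which may be technical. Alternatives were edgeR 4.0.16 (quasi-likelihood) and DESeq2 1.42.0 on recovered reads, other scalings, pseudocounts and filters, a replicate block, and leaving out each library; the steps were tested on simulated data. Nucleus log2 ratios used a pseudocount of 0.1 times the 90th percentile of the larger values in a cluster, and only genes at or above that percentile. Named pathway genes are up to 4 called genes per list with the smallest p, otherwise the gene with the highest mean; others named were chosen after their values were seen, and a few genes under this rule are not reported here. Neighbouring genes were taken from RefSeq (GRCm38.p6), because the deposited tables hold no coordinates. Counting intervals and floors cover counting error only.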

Additional observations from a re-analysis of the deposited data

Results flagged for a closer look

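Fcgr2b had opposite directions in 2 nucleus clusters: the log2 ratio of the MKO pool over the control pool was -1.15 in the macrophage-like cluster 2 and 0.31 in the B cell-like cluster 8. Fcgrt did so as well, with a log2 ratio of -1.06 in the dividing cluster 10 and 0.34 in the stellate cell-like cluster 5. Each rests on 1 pool per genotype, so the difference between clusters was not tested, and all 4 ratios use the level at the 75th percentile that was added after the data were seen.

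In cluster 10, the sinusoidal endothelial marker sum was 4.70% of that of cluster 4 in the MKO pool and 20.5% in the control pool, and Fcgr2b was 5.59% of its cluster 4 level in the MKO pool and 14.8% in the control pool. Fcgrt in cluster 10 averaged 0.569 in the MKO pool and 1.28 in the control pool. The part of sinusoidal endothelial RNA in these values was not tested.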

How the results depend on the processing

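Over the 15 bulk alternatives the log2 fold change lay between 1.57 and 1.91 for Fcgr3, 3.64 and 4.17 for Fcgr4, and 1.88 and 2.13 for Fcer1g. With a library left out, 180 to 441 genes were called (180 without MKO 2, 190 without MKO 3, 243 without control 2), and 14 to 33 pathway genes. DESeq2 called 684 genes and quantile normalization left 319. Whether the replicate numbers pair the samples is not stated in the labels. Same-numbered deviations had correlations of 0.06, -0.03 and -0.11, and MKO 3 with control 2 reached 0.15, so these values cannot decide it. With a replicate block 408 genes and 31 pathway genes were called, and Igha (limma adjusted p = 0.0527) and Ncf4 (0.0550) were lost. Ncf4 was also lost with edgeR (0.0540), with quantile normalization (0.0909) and without a filter (0.0606). Alb lay between -0.10 and 0.14 with a library left out, and reversed to 0.02 without MKO 1 and to 0.14 without control 2, far inside its error.

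Relative to macrophage genes, the log2 difference of Fcrl5 was 5.13 with a pseudocount of 0.1 and 1.87 with one of 10, as its control values are a few reads. Without Lyz2 among the macrophage genes, the differences of Fcgr1, Fcgr3 and Fcer1g moved to 0.029, 0.33 and 0.60. Per exon length the difference in the share of Fcgr4 was 45.1 percentage points, and those of Fcgr1 and Fcgr3 reversed to -2.05 and -4.69, because the transcripts differ in length. With the 75th percentile level the log2 ratio of Fcrl5 in cluster 2 was 5.05. Nucleus values have no replicate and an unknown number of nuclei.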

Other observations

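Most chromosomal neighbours of the 7 genes were not called, as was the case for most genes tested. Of 54 tested genes that start within 200 kb of a member (RefSeq, GRCm38.p6), 3 rose and none fell by limma, with a median log2 fold change of 0.02; over all genes 3.05% were called. The 3 were Arhgap30 near Fcer1g (log2 fold change 1.51 ± 0.13 SE, limma adjusted p = 0.00271), which encodes a GTPase-activating protein, Cd37 near Fcgrt (1.05 ± 0.19, 0.0208), a tetraspanin of immune cells, and Cd5l near Fcrl5 (1.68 ± 0.33, 0.0303), a protein secreted by macrophages that is among the Kupffer cell markers used here. Between Fcgr3 and Fcer1g, Sdhc (log2 fold change -0.01 ± 0.12) and Nr1i3 (0.05 ± 0.33), and next to Fcer1g Apoa2 (-0.02 ± 0.23), were not called. Dusp12, a phosphatase gene near Fcgr2b, Fcgr3 and Fcgr4 that is named after its values were seen, was not called either in bulk (log2 fold change 0.24 ± 0.11 SE, limma adjusted p = 0.438), while in cluster 2 nuclei it averaged 2.36 in the MKO pool and 0.443 in the control pool.

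Across the 26 cluster columns of nuclei, the genes most like each member were ranked by Pearson r of log2(value + 0.1). These columns are 13 clusters in 2 pools, not independent samples, so r is a description. Fcgr4 was most like the C-type lectin genes Clec4a3 and Clec4b1 (r = 0.96 each) and Adamdec1 (0.95). Fcrl5 was most like Clec2g (0.93) and Spi1 (0.88), and its r with Fcgr4 was 0.76. Fcer1g was most like Tyrobp (0.94) and the complement gene C1qa (0.93), Fcgr3 like Itgam and Igsf6 (0.97 each), and Fcgr1 like Arhgap19, Vsig4 and Lilra5 (0.97 each). Fcgr2b was most like the sinusoidal endothelial gene Clec4g (0.89), and Fcgrt like Sgpp1 (0.83); these members were at 0.78 with each other.

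Over the 6 bulk libraries, Sirpb1a and Epsti1 were most like Fcgr4 and Lilra5 most like Fcrl5 (Pearson r of 0.9996, 0.9990 and 0.9975), but the libraries form 2 separate groups by genotype, so that such an r carries the difference between them.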
